A study of Mus musculus with 12 samples.

Results

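The genes described here are 36 antiviral effector genes that interferon is known to induce, measured by RNA-seq in mouse bone marrow-derived macrophages (BMDMs) that received urban particulate matter (PM) with or without 4-octyl itaconate (OI), a cell-permeable ester of itaconate. They were chosen by name, and a gene was kept when it held at least 10 counts over the 12 libraries. All 36 listed genes were kept, out of 48795 genes in the deposited count tables, and their totals ran from 639 counts for Ifit3b to 138734 counts for Lgals3bp. The 6 groups of 2 libraries were WT and Acod1-/- BMDMs, each after vehicle, after PM at 20 µg/cm2 for 24 hours, or after OI at 0.25 mM given 2 hours before the PM. The WT strain is labelled C57BL/6, with C57BL/6NJ named in the study's methods, and the other strain is labelled C57BL/6NJ-Acod1em1(IMPC)J/J, a line in which Acod1, the gene of the enzyme that makes itaconate, is mutated in the whole animal. All cells were grown from bone marrow with M-CSF. No group received OI without PM, so an effect of OI was measured only on top of PM, and the study's methods name male mice of 7 to 11 weeks for both strains.

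Interferons are cytokines that cells release on sensing viral nucleic acid. Their receptors activate the kinases JAK1 and TYK2, which phosphorylate transcription factors of the STAT family, and these join IRF9 in a complex, ISGF3, that binds the interferon-stimulated response element (ISRE) in the promoters of target genes. The induced proteins block viral RNA, protein synthesis, budding or entry, and macrophages hold a low tonic level of many of them without infection.

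The libraries held 33616577 to 36817898 counts. Acod1 itself stood at 181 and 170.3 normalized CPM (CPM, a gene's count relative to library size, here with the size scaled by TMM) in WT cells with PM and at 108 and 94.1 in the libraries labelled Acod1-/-. Gene-level counts do not show which exons these reads cover, so they do not check the mutation. The study measured itaconate itself in BMDMs after PM and detected it in WT cells, with none detected in Acod1-/- cells. Nnt, a mitochondrial transhydrogenase gene that is mutated in a C57BL/6 substrain, stood at 33.0 to 37.7 normalized CPM in WT cells and at 63.4 to 74.3 in Acod1-/- cells with vehicle or PM, and genotype and strain background cannot be told apart here. Macrophage markers such as Adgre1 (880 to 2193 normalized CPM) and Lyz2 were abundant in each library, while Cd3e of T cells was at 0 counts and Siglech of plasmacytoid dendritic cells had 2 counts in all; Lck, listed with the T cell markers, was counted in every library, at 0.204 to 1.52 normalized CPM. The 2 WT libraries with OI+PM stood furthest apart, with 148 tested genes over 2-fold different between them against 4 to 38 in the other groups, and their difference followed exonic length (Spearman's rho = 0.607 across genes, which share both libraries and are not replicates; 0.595 for the 2 WT libraries with PM). Nothing in the sources states that the 2 libraries of a group came from separate animals or cultures, so each p-value measures the spread between these libraries only. In such bulk RNA, fewer responding cells and less RNA in each cell cannot be told apart.

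Many of the genes carry the letters of the ISRE just upstream of their start. RefSeq promoter windows (GRCm38.p6, 250 bases before to 50 after a gene's start) were matched by symbol for 29 of the 36 genes, and the remaining 7 (Oas2, Mx1, Mx2, Parp9, Parp14, Rtp4 and Ifi27l2a) were not matched. The ISRE core, searched on both strands, was found in 15 of the 29 (51.7%), against 3.99% of 27025 genes with such a window; overlapping matches were counted separately. The GAS core TTCNNNGAA, bound by dimers of STAT proteins, was found in 6 (20.7%) against 9.55%, and the antioxidant response element core TGACNNNGC, bound by NRF2, in 6 (20.7%) against 14.0%. The NF-kB core was in none of the 29 windows and in 1.38% of genes. A match is only a match of letters.

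The 190 bases before the start, 5′ to 3′ on the gene's strand and with ISRE core matches in capitals, are given for 9 genes. They were chosen to set 3 Ifit genes and the Oas1 paralogues beside Isg15, Rsad2, Ddx60 and Bst2. All 9 were taken from the 15 genes with a match. Genes whose window held none, such as Ifit2, Oasl1, Oasl2, Cmpk2 and Isg20, are not printed. Their positions are chr4:156200819-156201008 (minus strand) for Isg15, chr19:34640699-34640888 (plus) for Ifit1, chr19:34583339-34583528 (plus) for Ifit3, chr19:34607767-34607956 (plus) for Ifit3b, chr5:120907526-120907715 (minus) for Oas1a, chr5:120887614-120887803 (minus) for Oas1g, chr12:26456453-26456642 (minus) for Rsad2, chr8:61927897-61928086 (plus) for Ddx60 and chr8:71537473-71537662 (minus) for Bst2.
Isg15: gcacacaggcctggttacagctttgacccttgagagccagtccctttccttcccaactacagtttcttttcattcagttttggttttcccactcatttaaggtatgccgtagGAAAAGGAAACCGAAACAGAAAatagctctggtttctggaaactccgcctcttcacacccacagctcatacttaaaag
Ifit1: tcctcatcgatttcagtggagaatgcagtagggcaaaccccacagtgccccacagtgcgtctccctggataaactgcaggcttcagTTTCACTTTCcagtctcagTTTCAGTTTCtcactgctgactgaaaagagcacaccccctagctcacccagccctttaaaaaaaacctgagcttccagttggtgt
Ifit3: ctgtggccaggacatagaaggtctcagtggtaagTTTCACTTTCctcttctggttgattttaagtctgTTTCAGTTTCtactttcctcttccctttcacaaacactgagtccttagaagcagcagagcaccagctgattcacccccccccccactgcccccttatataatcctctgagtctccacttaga
Ifit3b: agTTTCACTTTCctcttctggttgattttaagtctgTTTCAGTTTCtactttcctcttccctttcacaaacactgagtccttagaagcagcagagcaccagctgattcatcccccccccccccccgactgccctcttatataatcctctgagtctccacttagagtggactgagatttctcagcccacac
Oas1a: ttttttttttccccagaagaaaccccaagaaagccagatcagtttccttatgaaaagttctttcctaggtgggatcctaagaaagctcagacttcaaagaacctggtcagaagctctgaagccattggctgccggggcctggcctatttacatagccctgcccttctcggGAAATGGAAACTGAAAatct
Oas1g: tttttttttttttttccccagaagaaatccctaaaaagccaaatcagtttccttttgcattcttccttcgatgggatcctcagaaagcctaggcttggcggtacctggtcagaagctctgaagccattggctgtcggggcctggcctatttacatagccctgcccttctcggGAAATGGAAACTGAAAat
Rsad2: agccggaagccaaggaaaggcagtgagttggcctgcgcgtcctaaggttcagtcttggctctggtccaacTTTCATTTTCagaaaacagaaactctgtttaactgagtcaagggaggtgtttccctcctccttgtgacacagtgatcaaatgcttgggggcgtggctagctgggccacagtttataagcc
Ddx60: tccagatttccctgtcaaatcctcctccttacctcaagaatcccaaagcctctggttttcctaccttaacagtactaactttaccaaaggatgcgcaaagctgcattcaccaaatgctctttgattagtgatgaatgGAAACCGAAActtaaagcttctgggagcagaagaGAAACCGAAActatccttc
Bst2: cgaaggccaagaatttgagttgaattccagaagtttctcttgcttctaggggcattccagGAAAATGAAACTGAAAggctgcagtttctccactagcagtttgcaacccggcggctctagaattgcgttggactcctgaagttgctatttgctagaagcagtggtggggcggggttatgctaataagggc

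Ifit1, Ifit3 and Ifit3b each held 2 separate matches read on the opposite strand, and those of Ifit3 and Ifit3b were the same pair of words at the same distance from each other. In Isg15 3 matches ran into one another, and in Oas1a, Oas1g and Bst2 2 did. The Oas1a and Oas1g matches ended 4 and 2 bases before the start, and those of Isg15 ended 56 bases before it. Of the 29 genes with a window, the 15 with a match had a median log2 fold change of 1.23 with PM in WT cells. The 14 without one had 1.33, and with OI added the medians were -2.66 and -1.85. In Acod1-/- cells the order with PM was the other way, 1.2 with a match and 1.15 without. With OI added the Acod1-/- medians were -2.79 and -1.87. These are descriptions, and the differences between genes with and without a match were not tested.

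PM raised most of the group in both genotypes, and OI given before PM lowered nearly all of it. With PM against vehicle, 32 of the 36 genes were higher in WT cells and 32 in Acod1-/- cells (edgeR's quasi-likelihood test, Benjamini-Hochberg adjusted p of 0.05 or less), where 12.6% and 12% of the 11228 genes tested were called higher; 0 of the 36 were lower (12.2% and 11.9% of all genes). At least 2-fold rises were called for 22 and 21 of them (3.02% and 3.19% of all genes). The median log2 fold change of the group was 1.27 and 1.18, beside 0.0126 and -2e-04 over all genes tested. Ifit3b, Mx2, Isg20 and Ifi44 were above the expression minimum (1.5 CPM) in both libraries of each PM group but below it in at least 1 vehicle library of each genotype, and without these 4, 28 of 32 genes were called higher in each genotype. With OI+PM against PM, 36 of 36 were lower in WT cells and 36 of 36 in Acod1-/- cells, where 22.6% and 20.6% of all genes tested were called lower, with group medians of -2.61 and -2.63 beside 0.0224 and -6e-04 for all genes. At least 2-fold falls were called for 34 and 32 of them (8.49% and 7.98% of all genes). The WT call of Isg20 was lost in 10 of the 12 fits without 1 library, which left 35, and with the compared groups alone 34 were called in WT cells. Without the same 4 genes, 32 of 32 were lower in each genotype, with medians of -2.51 and -2.46. Together the 36 genes took 0.15% of all counts in WT cells with vehicle, 0.270% to 0.296% with PM and 0.0641% to 0.0701% with OI+PM, and the shares in Acod1-/- cells were 0.18%, 0.316% to 0.318% and 0.0784% to 0.0797%. In both genotypes the 3 conditions therefore did not overlap in this share.

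**Figure D1:**
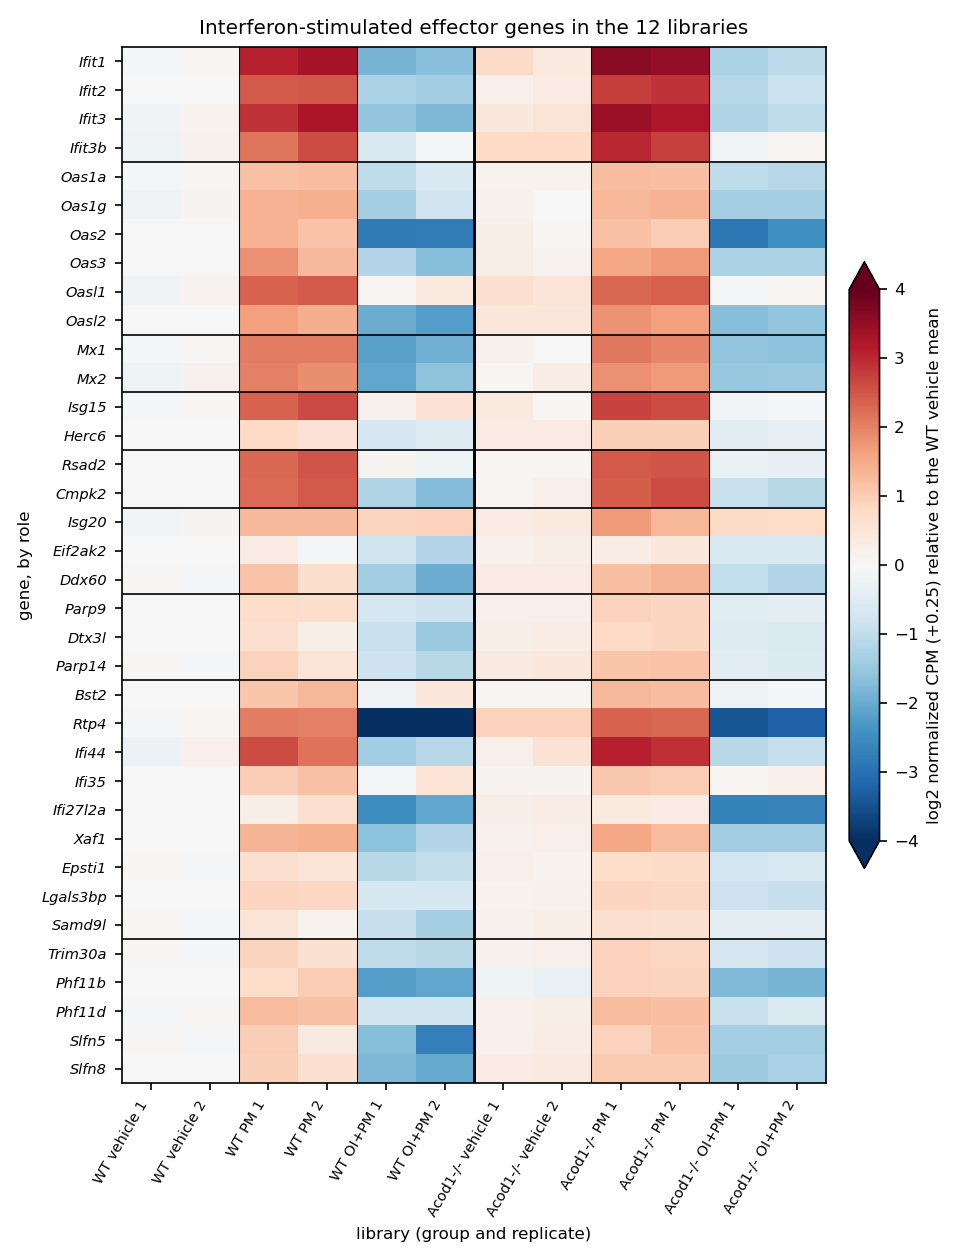
Level of each of the 36 genes (rows, ordered by role) in each of the 12 libraries (columns), as log2 of normalized CPM plus 0.25 relative to the mean of the 2 WT vehicle libraries; red is higher, blue lower, and the scale ends at 4 and -4. The 4 PM columns are red for nearly all genes and the 4 OI+PM columns blue for most. Isg15, Rsad2, Bst2, Ifi35, Oasl1, Ifit3b and Isg20 are among the genes that stay pale or light red with OI+PM.

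IFIT1 and its partners bind viral RNA that lacks the host's cap methylation and block its translation. The 4 genes lie in a row on chromosome 19 (GRCm38, plus strand), with starts 32.8, 24.4 and 32.9 kb apart, and they rose furthest of all roles. Ifit1 stood at 3.93 and 4.20 normalized CPM with vehicle, 36.5 and 43.4 with PM and 0.928 and 1.12 with OI+PM in WT cells, and at 7.13 and 5.44, 52.9 and 49.1 and 1.53 and 1.85 in Acod1-/- cells. The ordering is the same in both genotypes, PM above vehicle above OI+PM, with no overlap between conditions. The rise in WT cells was 3.29 on the log2 scale (SE 0.15, 9.81-fold, adjusted p = 3.78e-07) and in Acod1-/- cells 3.02 (SE 0.14, adjusted p = 4.26e-07), and with OI the log2 change from PM was -5.29 and -4.91. In WT cells, Ifit2 had 15.3 and 15.8 normalized CPM in the vehicle libraries, 85.4 and 87.6 in the PM libraries and 6.26 and 5.79 in the OI+PM libraries, and in Acod1-/- cells it had 18.1 and 19.7, 106 and 117 and 6.94 and 8.41. Per kilobase of exon Ifit2 had the highest group mean of the 4 in each of the 6 groups, and its conditions did not overlap in either genotype.

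For Ifit3, normalized CPM went from 2.67 and 3.31 with vehicle to 23.9 and 31.0 with PM and 0.839 and 0.677 with OI+PM in WT cells, and from 4.05 and 4.36 to 34.4 and 29.9 and 1.17 and 1.35 in Acod1-/- cells. Normalized CPM of Ifit3b was 0.294 and 0.458 (vehicle), 2.48 and 3.54 (PM) and 0.150 and 0.338 (OI+PM) in WT libraries and 0.848 and 0.833, 4.79 and 3.94 and 0.331 and 0.400 in Acod1-/- libraries. Both lay below their vehicle values with OI+PM, except that Ifit3b in the second WT library with OI+PM lay between its vehicle values. The difference of Ifit3b from vehicle was -0.65 in WT cells (adjusted p = 0.267), and without that library -1.31 (adjusted p = 0.126). In Acod1-/- cells it was -1.19 (adjusted p = 0.0261), a call lost in 4 of the 12 fits without 1 library, those without a vehicle or OI+PM library of Acod1-/- cells (adjusted p of 0.0768 to 0.124). Ifit3b made up 9.43% to 17.3% of the summed CPM of the pair with vehicle or PM and 15.1% to 33.3% with OI+PM. Reads of these genes are uncertain: 51.2% of the 50-base stretches of Ifit3 also occur in another gene, all of these in Ifit3b, and 45.0% of those of Ifit3b occur elsewhere. How reads that fit several places were counted is not given in the sources used here, so part of each gene's level could belong to the other or be missing from both. Without the second WT library with OI+PM the fall of Ifit3b in WT cells was -4.30 in place of -3.64 (both called).

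The 2'-5' oligoadenylate synthetases (OAS) sense double-stranded RNA and make a small nucleotide messenger in answer, while Oasl1 and Oasl2 encode OAS-like proteins. Libraries of WT cells held Oasl2 at 51.1 and 51.4 normalized CPM with vehicle, 162 and 140.4 with PM and 12.7 and 11.0 with OI+PM, and those of Acod1-/- cells at 69.7 and 69.8, 178 and 159.7 and 15.7 and 16.9. This long gene held the most counts of the OAS genes, and its conditions did not overlap. The level of Oas3 was 27.6 and 27.9 normalized CPM with vehicle, 98.8 and 68.8 with PM and 12.2 and 8.26 with OI+PM in WT cells, beside 33.0 and 30.9, 81.8 and 91.1 and 11.5 and 11.4 in Acod1-/- cells. The WT replicates of this long gene (7069 exonic bases) were far apart with PM, yet the lower of them was still above both vehicle libraries. Oas2 stood at 18.4 and 17.7 normalized CPM with vehicle, 48.2 and 40.5 with PM and 2.34 and 2.40 with OI+PM in WT cells, and at 21.5 and 18.8, 40.7 and 35.7 and 2.22 and 3.11 in Acod1-/- cells. With OI+PM, Oas2 stood further below vehicle than any other OAS gene, at -2.93 log2 units in WT cells and -2.92 in Acod1-/- cells.

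In WT cells, Oas1a had 24.1 and 25.4 normalized CPM in the vehicle libraries, 55.6 and 58.8 in the PM libraries and 12 and 16.0 in the OI+PM libraries, and in Acod1-/- cells it had 27.6 and 27.2, 58.6 and 57.7 and 12.1 and 11.4. For Oas1g, normalized CPM went from 5.16 and 6.21 with vehicle to 15.2 and 15.6 with PM and 2.10 and 3.18 with OI+PM in WT cells, and from 6.51 and 5.72 to 14.6 and 15.4 and 2.07 and 2.10 in Acod1-/- cells. Both genes rose with PM, by 1.21 and 1.44 log2 units in WT cells, and lay below vehicle with OI+PM, again without overlap. They are close copies, starts 19.9 kb apart on chromosome 5: 57.6% of the 50-base stretches of Oas1a occur in Oas1g, 45.7% of those of Oas1g occur elsewhere, and Oas1g made up 14.6% to 21.5% of their summed CPM. Their separate values are therefore uncertain, and the sum of both moved from 29.2 and 31.6 to 70.9 and 74.4 normalized CPM with PM and to 14.1 and 19.2 with OI+PM in WT cells. Normalized CPM of Oasl1 was 1.60 and 2.01 (vehicle), 10.4 and 10.9 (PM) and 1.89 and 2.47 (OI+PM) in WT libraries and 2.98 and 2.69, 9.79 and 10.6 and 1.74 and 1.91 in Acod1-/- libraries. Unlike the other OAS genes, Oasl1 with OI+PM overlapped its vehicle libraries in WT cells, with a log2 difference of 0.26 (adjusted p = 0.211), whereas in Acod1-/- cells both OI+PM libraries were below vehicle (-0.63, adjusted p = 0.0104, lost without Acod1-/- vehicle replicate 1 or Acod1-/- OI+PM replicate 1, where it was -0.56 and -0.57).

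Mx1 and Mx2 encode dynamin-like GTPases that block incoming viral nucleocapsids; in the GENCODE annotation Mx2 is a polymorphic pseudogene, and both genes are known to carry disabling mutations in many laboratory strains, so their RNA does not stand for protein. Libraries of WT cells held Mx1 at 4.33 and 4.58 normalized CPM with vehicle, 19.4 and 19.3 with PM and 0.809 and 0.981 with OI+PM, and those of Acod1-/- cells at 5.08 and 4.36, 20.1 and 17.9 and 1.32 and 1.26. Mx1 rose by 2.12 and 2.01 log2 units with PM, and each OI+PM library was below each vehicle library. The level of Mx2 was 1.12 and 1.53 normalized CPM with vehicle, 6.08 and 5.48 with PM and 0.120 and 0.271 with OI+PM in WT cells, beside 1.37 and 1.69, 5.38 and 4.83 and 0.301 and 0.308 in Acod1-/- cells. The 2 genes share some sequence: 4.38% of the 50-base stretches of Mx2 occur in Mx1, and 4.37% of those of Mx1 occur in other genes, mostly Mx2. With OI the log2 change of Mx2 was -4.89 and -4.05. That fall rests on few counts: without the second WT library with OI+PM it was -5.55 in WT cells, still called.

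**Figure D2:**
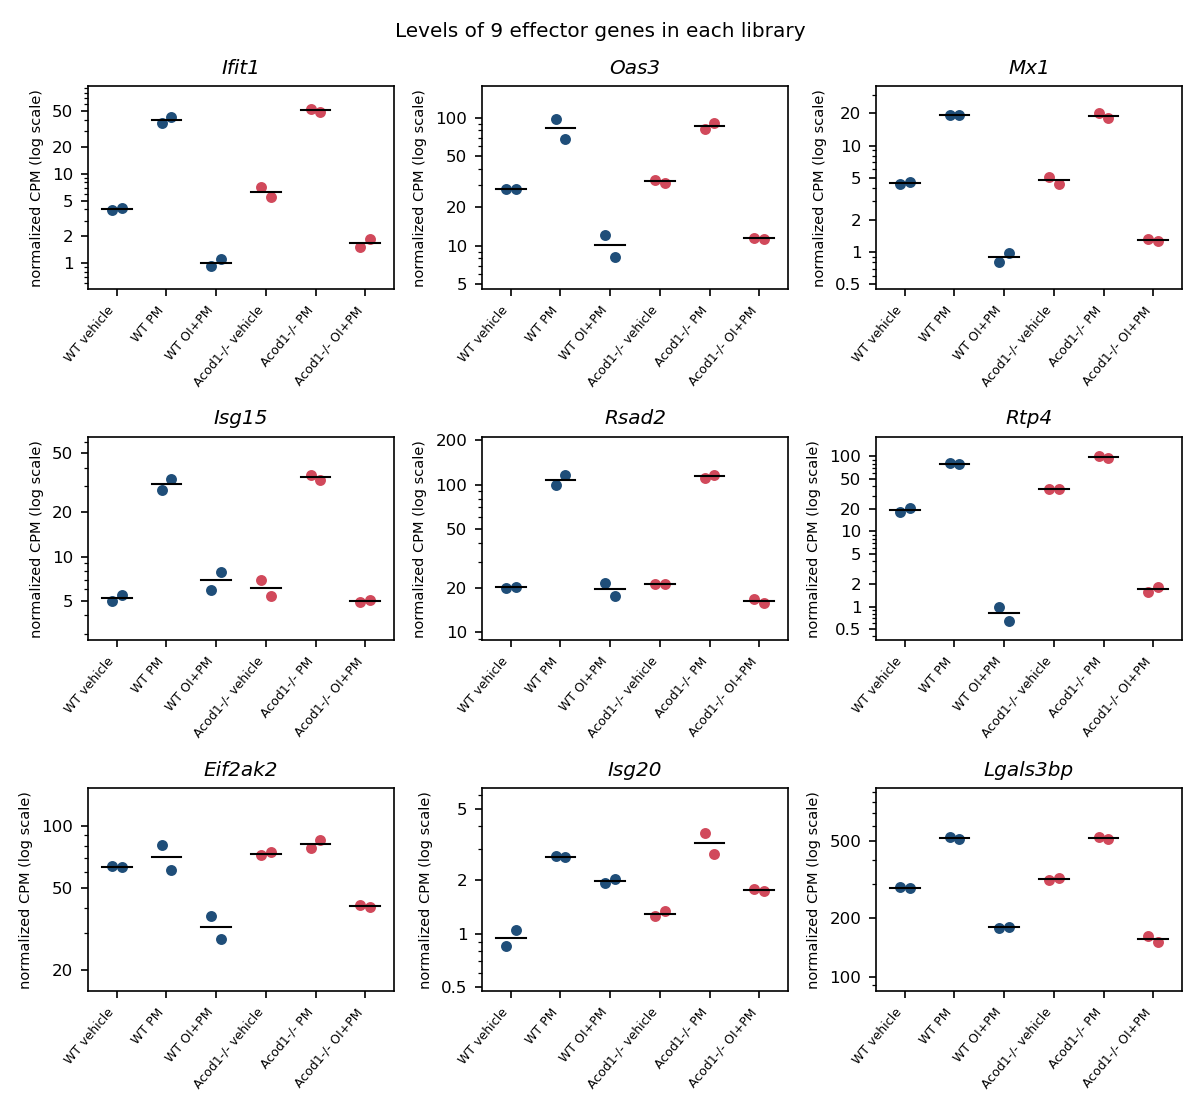
Normalized CPM (log axis) of 9 of the genes in each library: points are single libraries, bars the means of 2, blue WT and red Acod1-/-. Ifit1, Oas3, Mx1, Rtp4, Eif2ak2 and Lgals3bp lie below vehicle with OI+PM in both genotypes, Isg15 and Rsad2 lie near it, and Isg20 stays above it.

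ISG15 is a ubiquitin-like modifier, and Herc6 encodes the main ligase that attaches it in mice. Isg15 stood at 5.02 and 5.47 normalized CPM with vehicle, 28.2 and 33.8 with PM and 5.99 and 7.92 with OI+PM in WT cells, and at 6.97 and 5.39, 35.9 and 33.2 and 4.90 and 5.08 in Acod1-/- cells. With OI+PM it returned to near vehicle, just above it in both WT libraries and just below it in both Acod1-/- libraries: the difference from vehicle was 0.40 in WT cells (adjusted p = 0.0597) and -0.31 in Acod1-/- cells (adjusted p = 0.161). The WT direction changed between fits: the value was 0.59 and called without WT OI+PM replicate 1, and -0.14 when the fit allowed for gene length, while the Acod1-/- value was below 0 throughout and with that allowance -0.59 and called. In WT cells, Herc6 had 20.4 and 21.2 normalized CPM in the vehicle libraries, 36.5 and 31.2 in the PM libraries and 13.1 and 14.6 in the OI+PM libraries, and in Acod1-/- cells it had 26 and 26, 40.4 and 40.6 and 15.6 and 16.5. Herc6 moved by less, with log2 changes of 0.70 with PM and -1.29 with OI in WT cells, and its conditions did not overlap. A predicted gene, Gm45193, shares 12% of its 50-base stretches, so a part of its reads is uncertain.

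Viperin, the product of Rsad2, makes a nucleotide that terminates viral RNA chains, and Cmpk2, a nucleotide kinase gene next to it (starts 12.8 kb apart on chromosome 12, transcribed away from each other), makes its precursor. For Rsad2, normalized CPM went from 19.9 and 20.4 with vehicle to 99.4 and 116 with PM and 21.5 and 17.6 with OI+PM in WT cells, and from 21.2 and 21.4 to 112 and 117 and 16.8 and 15.9 in Acod1-/- cells. Normalized CPM of Cmpk2 was 10.4 and 10.4 (vehicle), 51.4 and 58.0 (PM) and 4.34 and 2.98 (OI+PM) in WT libraries and 11.0 and 12, 56.9 and 65.5 and 5.44 and 4.71 in Acod1-/- libraries. With PM the neighbours rose alike, by 2.42 and 2.39 log2 units in WT cells and by 2.42 and 2.41 in Acod1-/- cells. With OI+PM they parted, Rsad2 standing at vehicle level in WT cells (-0.04, SE 0.11, adjusted p = 0.745) and Cmpk2 well below it (-1.5, SE 0.16, adjusted p = 3.13e-05); the difference between the 2 genes was not tested. In Acod1-/- cells Rsad2 was called below vehicle (-0.38, adjusted p = 0.0148), a call that was lost without either Acod1-/- vehicle library or without Acod1-/- OI+PM replicate 2 (-0.38, -0.38 and -0.34).

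Isg20 encodes an RNA exonuclease, Eif2ak2 the kinase PKR, which stops translation when it binds double-stranded RNA, and Ddx60 a helicase-like cofactor of RNA sensing. Libraries of WT cells held Isg20 at 0.855 and 1.04 normalized CPM with vehicle, 2.71 and 2.68 with PM and 1.92 and 2.03 with OI+PM, and those of Acod1-/- cells at 1.26 and 1.33, 3.65 and 2.79 and 1.77 and 1.73. Of the 36 genes it had the smallest fall with OI, -0.45 in WT cells (adjusted p = 0.0469) and -0.88 in Acod1-/- cells (adjusted p = 0.00191), and the WT call was lost in 10 of the 12 fits with a library left out (log2 -0.49 to -0.41, adjusted p of 0.0284 to 0.127 over the 12). It was also the one gene called above vehicle with OI+PM, by 1.05 in WT cells, with 0.43 in Acod1-/- cells (adjusted p = 0.075). Values near 1 normalized CPM come from few reads, 815 in all 12 libraries.

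The level of Eif2ak2 was 63.5 and 63.4 normalized CPM with vehicle, 80.5 and 61.2 with PM and 36.3 and 28.3 with OI+PM in WT cells, beside 72.0 and 74.6, 78.0 and 84.9 and 41.1 and 40.4 in Acod1-/- cells. No rise of Eif2ak2 RNA with PM was called: the log2 difference was 0.16 in WT cells (95% CI -0.14 to 0.46, adjusted p = 0.384) and 0.15 in Acod1-/- cells (95% CI -0.15 to 0.45, adjusted p = 0.425), with the WT libraries with PM on both sides of vehicle and the Acod1-/- ones just above it. With the compared groups alone in the fit the Acod1-/- difference was 0.16 and called. With OI+PM it stood below vehicle in both genotypes, at -0.97 and -0.85 log2 units. Ddx60 stood at 12.2 and 11.6 normalized CPM with vehicle, 26.4 and 19.5 with PM and 4.37 and 2.81 with OI+PM in WT cells, and at 14.8 and 14.9, 27.4 and 31.0 and 5.89 and 5.11 in Acod1-/- cells. Each OI+PM library of Ddx60 was below each vehicle library, and each PM library above.

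PARP9 and DTX3L work as one ADP-ribosylating ubiquitin ligase complex of the interferon response, and PARP14 is a mono-ADP-ribosyltransferase. In WT cells, Parp14 had 149 and 139 normalized CPM in the vehicle libraries, 274 and 209 in the PM libraries and 81.4 and 66.7 in the OI+PM libraries, and in Acod1-/- cells it had 185 and 193, 311 and 317 and 108 and 98.3. For Parp9, normalized CPM went from 50.6 and 49.6 with vehicle to 83.4 and 81.5 with PM and 30.4 and 28.2 with OI+PM in WT cells, and from 58.0 and 57.7 to 95.8 and 91.0 and 35.4 and 39.2 in Acod1-/- cells. Normalized CPM of Dtx3l was 56.8 and 55.1 (vehicle), 87.2 and 65.5 (PM) and 30.1 and 19.9 (OI+PM) in WT libraries and 65.5 and 68.2, 97.1 and 102 and 38.8 and 37.3 in Acod1-/- libraries. The median log2 change with PM of these 3 genes was 0.72 in WT cells, beside 1.27 for the 36, with PM changes of 0.45 to 0.75 and OI changes of -1.71 to -1.49 in WT cells. Dtx3l was called with PM in Acod1-/- cells only (0.57, adjusted p = 0.0344, against 0.079 in WT cells); the genotypes' difference was not called (interaction adjusted p = 1), the Acod1-/- call was lost in 8 of the 12 fits without 1 library (log2 0.54 to 0.61), and WT cells gained one in 3 of them (0.225 without WT PM replicate 1 to 0.64 without WT PM replicate 2 over the 12). The 2 genes start 681 bases apart on opposite strands of chromosome 16 and share 458 exonic bases, and whether the counting used strand is not given in the sources used here, so a part of their reads is uncertain.

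**Figure D3:**
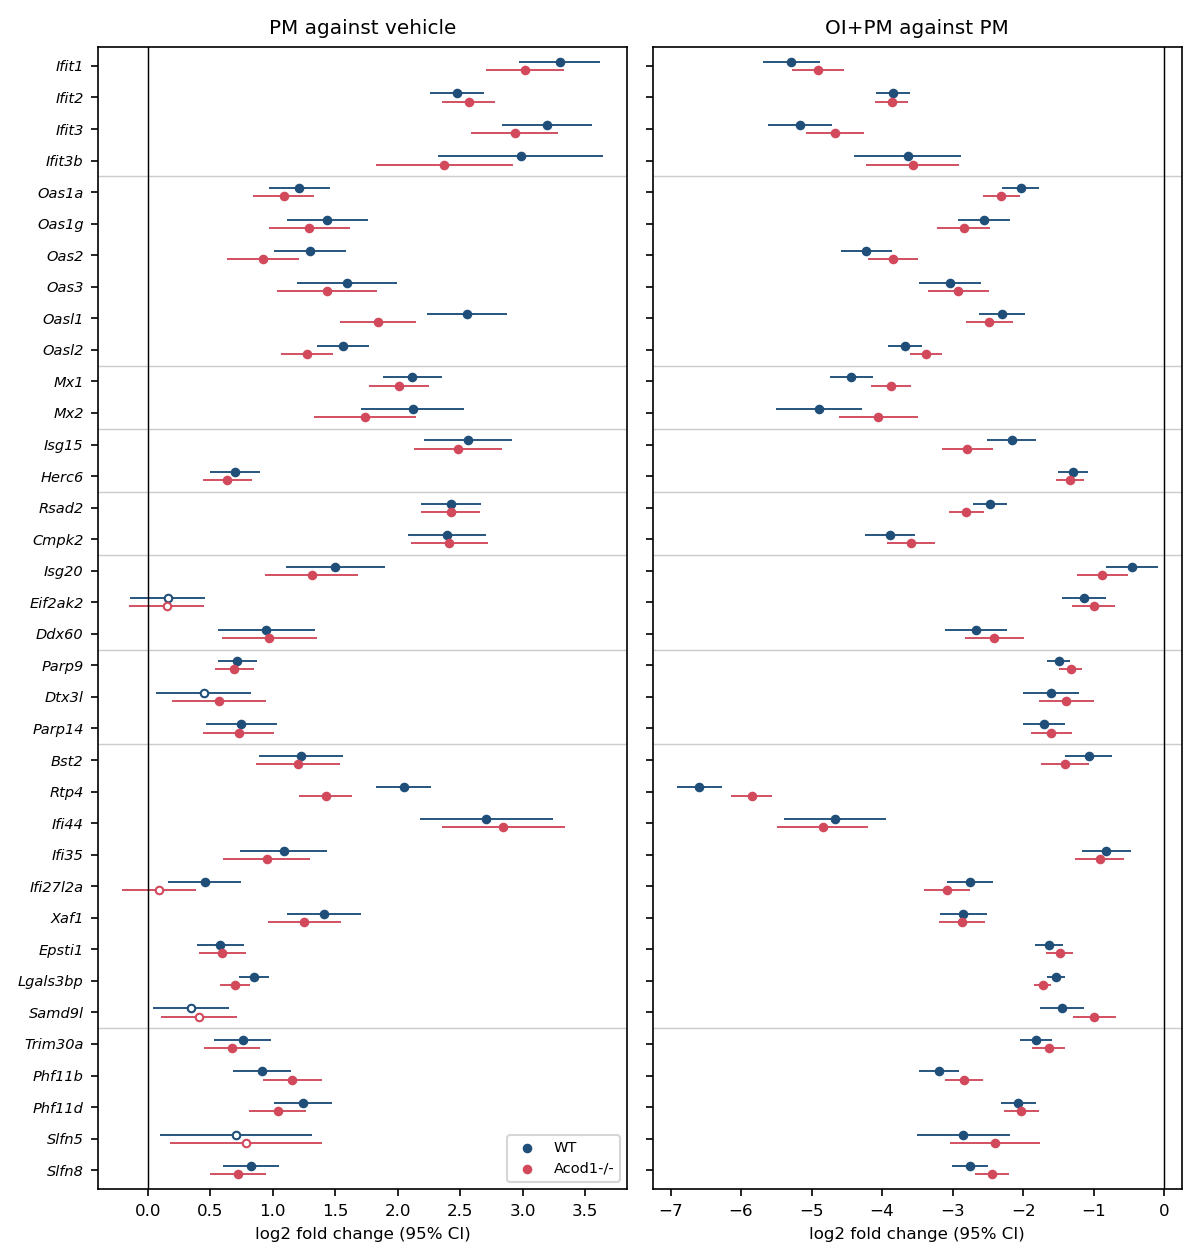
Log2 fold change with its 95% confidence interval for PM against vehicle (left) and OI+PM against PM (right), for each gene in WT (blue) and Acod1-/- cells (red); filled points have an adjusted p of 0.05 or less. Rises run from 0.09 for Ifi27l2a to 3.29 for Ifit1, and falls from -0.45 for Isg20 to -6.59 for Rtp4.

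BST2, or tetherin, holds budding virus on the cell surface, and RTP4 is a zinc-finger protein that binds viral replication complexes. Libraries of WT cells held Bst2 at 87.6 and 88.8 normalized CPM with vehicle, 191.2 and 222 with PM and 79.4 and 118 with OI+PM, and those of Acod1-/- cells at 93.1 and 92.6, 218 and 209 and 77.0 and 84.1. The OI+PM libraries lay on both sides of vehicle in WT cells and just below it in Acod1-/- cells: the difference from vehicle was 0.16 in WT cells (adjusted p = 0.369) and -0.21 in Acod1-/- cells (adjusted p = 0.276). Its WT difference turned to -0.36, called, when the fit allowed for gene length (903 exonic bases), to 0.42, called, without WT OI+PM replicate 1 and to -0.15 without WT OI+PM replicate 2, so its direction is not settled. In Acod1-/- cells it was called lower without either WT OI+PM library (-0.21 in each), with the compared groups alone (-0.19) and with the allowance for gene length (-0.47). The level of Rtp4 was 18.2 and 20.5 normalized CPM with vehicle, 81.1 and 78.8 with PM and 0.988 and 0.643 with OI+PM in WT cells, beside 36.5 and 36.8, 100.5 and 96.4 and 1.56 and 1.85 in Acod1-/- cells. With OI, Rtp4 had the largest fall of the 36, at -6.59 log2 units in WT cells (SE 0.14, adjusted p = 2.84e-09) and -5.85 in Acod1-/- cells (SE 0.13, adjusted p = 3.34e-09), and its difference from vehicle was -4.55 and -4.42. A predicted gene, Gm45338, overlaps 296 of its 2131 exonic bases.

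Ifi44 encodes a microtubule-associated antiproliferative protein, and IFI35 is a leucine-zipper protein of the interferon response. Ifi44 stood at 0.695 and 1.04 normalized CPM with vehicle, 6.63 and 4.81 with PM and 0.180 and 0.271 with OI+PM in WT cells, and at 1.04 and 1.42, 9.50 and 8.17 and 0.271 and 0.339 in Acod1-/- cells. From 0.695 to 1.42 normalized CPM with vehicle it rose to 4.81 or more in each PM library. In WT cells, Ifi35 had 21.5 and 22.4 normalized CPM in the vehicle libraries, 43.7 and 49.4 in the PM libraries and 21.0 and 31.9 in the OI+PM libraries, and in Acod1-/- cells it had 23.7 and 23.5, 46.5 and 44.8 and 23.1 and 25.3. Ifi35 with OI+PM lay on both sides of its vehicle libraries in each genotype, with differences of 0.27 (adjusted p = 0.154) and 0.04 (adjusted p = 0.854); the WT libraries were far apart, and without WT OI+PM replicate 1 the WT value was 0.54 and called higher, without WT OI+PM replicate 2 it was -0.06, and with the allowance for gene length it was -0.10 in WT and -0.14 in Acod1-/- cells. Its fall with OI in WT cells was -0.82 and was not called with the compared groups alone (-0.84, adjusted p = 0.0524). Another predicted gene, Gm11626, shares 10.4% of its 50-base stretches.

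Ifi27l2a encodes a small hydrophobic protein, and Xaf1 a zinc-finger protein that promotes cell death. For Ifi27l2a, normalized CPM went from 76.7 and 74.2 with vehicle to 90.2 and 116 with PM and 13.2 and 17.5 with OI+PM in WT cells, and from 89.8 and 92.1 to 98.7 and 94.8 and 11.3 and 11.6 in Acod1-/- cells. PM moved it little, by 0.45 in WT cells (adjusted p = 0.0319) and 0.09 in Acod1-/- cells (adjusted p = 0.636). The WT call was lost in 9 of the 12 fits without 1 library, at 0.26 without WT PM replicate 2, and when the fit allowed for gene length the WT value was 0.11, no longer called, and the Acod1-/- value turned to -0.22, this being the shortest gene of the group (463 exonic bases). With OI+PM it stood far below vehicle, at -2.30 and -2.99 log2 units. Normalized CPM of Xaf1 was 11.7 and 11.6 (vehicle), 30.3 and 31.7 (PM) and 3.59 and 5.08 (OI+PM) in WT libraries and 13.2 and 13.3, 34.8 and 28.3 and 4.30 and 4.34 in Acod1-/- libraries. Xaf1 followed the common pattern, with no overlap between conditions.

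Epsti1 encodes an epithelial-stromal interaction protein that macrophages also make, Lgals3bp a secreted galectin-binding glycoprotein, and Samd9l a protein that halts translation. Libraries of WT cells held Lgals3bp at 289 and 288 normalized CPM with vehicle, 524 and 515 with PM and 179 and 180.1 with OI+PM, and those of Acod1-/- cells at 315 and 324, 524 and 512 and 163 and 151. Lgals3bp held the most counts of the 36 genes, and its conditions did not overlap. The level of Epsti1 was 35.9 and 32.7 normalized CPM with vehicle, 53.5 and 49.2 with PM and 15.6 and 17.4 with OI+PM in WT cells, beside 39.5 and 37.6, 57.8 and 58.9 and 20.0 and 21.8 in Acod1-/- cells. Samd9l stood at 122 and 117 normalized CPM with vehicle, 172 and 132 with PM and 63.2 and 47.9 with OI+PM in WT cells, and at 133 and 145, 187 and 183 and 92.6 and 93.8 in Acod1-/- cells. Samd9l was not called with PM (0.35, adjusted p = 0.0872, and 0.41, adjusted p = 0.0546), though each PM library was above each vehicle library, and it passed the threshold in 3 and 4 of the 12 fits without 1 library. Its levels with OI+PM were below vehicle in both genotypes.

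Trim30a, Phf11b, Phf11d, Slfn5 and Slfn8 belong to families with many mouse copies; TRIM30A is a ubiquitin ligase that restrains NF-kB signalling, the PHF11 proteins carry a zinc finger of the PHD type, and the Schlafen proteins of Slfn5 and Slfn8 act on tRNA and transcription. In WT cells, Trim30a had 93.1 and 88.5 normalized CPM in the vehicle libraries, 169.8 and 138 in the PM libraries and 45.1 and 42.1 in the OI+PM libraries, and in Acod1-/- cells it had 103 and 106, 172 and 160.3 and 56.3 and 50.6. For Slfn8, normalized CPM went from 28.3 and 27.9 with vehicle to 54.7 and 45.1 with PM and 8.0 and 6.77 with OI+PM in WT cells, and from 35.2 and 35.8 to 58.7 and 58.6 and 10.3 and 11.3 in Acod1-/- cells. Normalized CPM of Slfn5 was 84.0 and 77.7 (vehicle), 161 and 103 (PM) and 24.6 and 11.9 (OI+PM) in WT libraries and 92.7 and 99.5, 155 and 177 and 31.6 and 31.2 in Acod1-/- libraries. The WT replicates of Slfn5 were far apart with PM and with OI+PM, and its PM change was not called (0.71, adjusted p = 0.0817, and 0.79, adjusted p = 0.0613). It was called in WT cells without WT PM replicate 2, at 0.99, and also without either WT OI+PM library, at 0.71, whereas without WT PM replicate 1 it was 0.35 and not called; in Acod1-/- cells it was called without any one of the WT PM or WT OI+PM libraries, at 0.79. Without WT OI+PM replicate 1 its fall with OI was -3.47 in place of -2.85.

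Libraries of WT cells held Phf11b at 8.79 and 8.73 normalized CPM with vehicle, 14.9 and 18.1 with PM and 1.71 and 1.90 with OI+PM, and those of Acod1-/- cells at 7.68 and 7.16, 16.9 and 16.3 and 2.38 and 2.25. The level of Phf11d was 8.20 and 8.76 normalized CPM with vehicle, 20.8 and 19.3 with PM and 4.82 and 4.74 with OI+PM in WT cells, beside 9.71 and 10.1, 20.8 and 19.9 and 4.42 and 5.58 in Acod1-/- cells. With OI+PM the difference of Phf11b from vehicle was -2.28 and -1.68, and that of Phf11d -0.83 and -0.99. Sharing of reads makes the family uncertain: 47.0% of the 50-base stretches of Phf11b occur in other genes, Phf11a leading with 26%, and Phf11a itself rose with PM and changed by -4.46 and -4.54 log2 units with OI. For Slfn8 14.6% of the stretches occur elsewhere, in Slfn9 and Slfn10-ps, so its reads are uncertain too. With PM in WT cells Slfn9 had -0.25 (adjusted p = 0.314) and Slfn10-ps -0.82 (adjusted p = 0.0698), where Slfn8 rose by 0.83. With OI all 3 were called lower in WT cells, Slfn9 at -4.55, Slfn10-ps at -1.35 and Slfn8 at -2.75 log2 units, and the differences between these genes were not tested. For Slfn5, 7.39% of the stretches lie in the antisense gene Slfn5os, and for Trim30a 5.98% in Trim30d. Of the stretches of Phf11d, 8.1% occur in other genes, Phf11c leading with 5.71%.

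Set per kilobase of exon, which allows levels of different genes to be compared, Bst2 (229 ± 24 normalized CPM per kb, SD, n = 2), Ifi27l2a (223 ± 40) and Lgals3bp (183 ± 2.3) led in WT cells with PM and the first 2 did not differ beyond their spread. Isg15 (41.0 ± 5.3), Rtp4 (37.5 ± 0.79) and Trim30a (37.4 ± 5.6) followed, within each other's spread. At the bottom were Mx2, Ifit3b, Isg20 and Ifi44, with 0.933 to 1.60. With vehicle the same 3 genes led, Ifi27l2a at 163 ± 3.9, Lgals3bp at 101 ± 0.34 and Bst2 at 97.6 ± 0.93, and with OI+PM Ifi27l2a had dropped to 33.1 ± 6.6, behind Bst2 (109 ± 30) and Lgals3bp (63.0 ± 0.35).

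Most of the genes stood below vehicle with OI+PM, a comparison that shares its vehicle libraries with that of PM and its OI+PM libraries with that of OI. Against vehicle, 29 of the 36 genes were lower in WT cells and 32 in Acod1-/- cells, where 31.9% and 26.7% of all genes tested were called lower, with 22 and 21 at least 2-fold lower (10.7% and 9.25% of all genes). The group medians were -1.14 and -1.21, beside 0.0203 and -0.0056 for all genes tested. Isg20 alone was higher, in WT cells (33.6% of all genes were called higher, and 22.7% in Acod1-/- cells, where 0 of the 36 were). Not called were Ifit3b, Oasl1, Isg15, Rsad2, Bst2 and Ifi35 in WT cells and Isg15, Isg20, Bst2 and Ifi35 in Acod1-/- cells. These 7 genes have no one role: they include an RNA-binding protein, an OAS-like protein, a ubiquitin-like modifier, viperin, a nuclease, tetherin and IFI35. The genes furthest below vehicle in WT cells were Rtp4 (-4.55), Oas2 (-2.93), Mx2 (-2.78), Mx1 (-2.32), Ifi27l2a (-2.30) and Phf11b (-2.28). Without WT OI+PM replicate 2 the value of Mx2 was -3.43, and without WT OI+PM replicate 1 that of Slfn5 was -2.77 in place of -2.14.

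**Figure D4:**
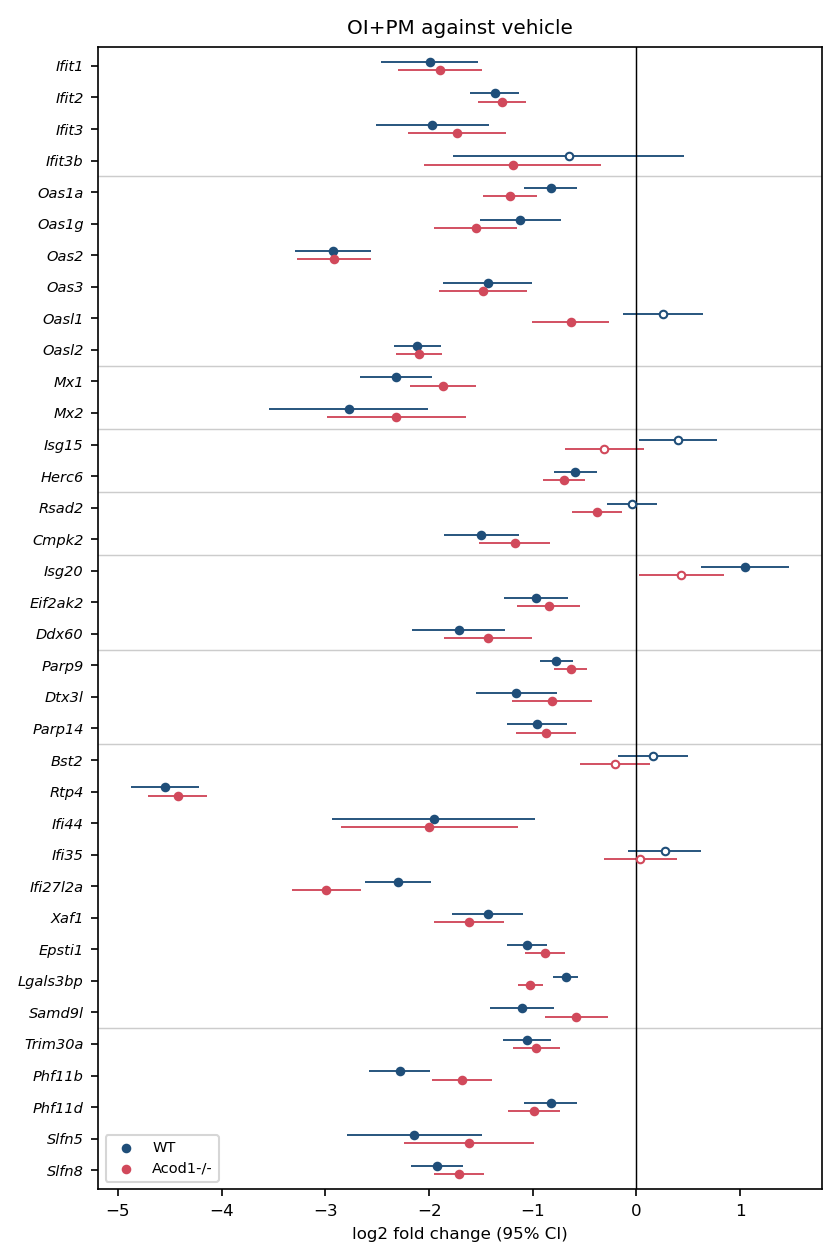
Log2 fold change of OI+PM against vehicle with its 95% confidence interval for each gene, WT in blue and Acod1-/- in red, filled where the adjusted p was 0.05 or less. Most points lie left of 0, Rtp4 furthest at -4.55 and -4.42, and Isg20, Isg15, Bst2, Ifi35 and Rsad2 lie nearest to or right of 0 in both genotypes, with Oasl1 at 0.26 in WT and -0.63 in Acod1-/- cells.

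Differences between the genotypes were small beside those between treatments. With vehicle, 2 of the 36 genes were called higher in Acod1-/- than in WT cells (0.891% of all genes tested were called higher) and none lower (0.935%): Rtp4, at 18.2 and 20.5 against 36.5 and 36.8 normalized CPM (log2 0.92, SE 0.10, adjusted p = 0.00119), and Oasl2, at 51.1 and 51.4 against 69.7 and 69.8 (0.44, SE 0.09, adjusted p = 0.044). Rtp4 kept this call in the 12 fits with a library left out, and Oasl2 lost it in 8 of them (adjusted p of 0.00895 to 0.332). The point estimate was above 0 for 35 of the 36 genes, Phf11b being the exception, with a median of 0.22 beside 0.0091 for all genes tested, and 12 had an unadjusted p under 0.05 (10.2% of all genes). With only the 4 vehicle libraries in the fit, 21 of the 36 were called higher, where 10.4% of all genes were. Such a fit has only 2 libraries per group from which to estimate the spread, which is too few. It called 20.6% of all genes in either direction, against 1.83% with all 12 libraries, so the 21 calls are description only.

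With PM, 0 of the 36 were called by edgeR's quasi-likelihood test (2.4% of all genes were called in either direction), 11 had an unadjusted p under 0.05 (14% of all genes), and DESeq2 called 2, Ifit2 and Rtp4 (3.87% of all genes). The median was 0.16, beside 2e-04 for all genes tested, and 28 of the 36 were above 0. Leaving out WT OI+PM replicate 1 or 2, which enter only through the shared estimate of spread, let 3 pass, in fits that called 6.21% and 6.19% of all genes. With OI+PM, 5 were called higher in Acod1-/- cells (2.51% of all genes) and none lower (4.45%): Rtp4 (1.04, adjusted p = 0.0161), Samd9l (0.75, 0.0156), Slfn8 (0.55, 0.0248), Oasl2 (0.46, 0.0295) and Parp9 (0.35, 0.0228). The median over the 36 was 0.34, beside -0.0313 for all genes tested, 26 of them were above 0, and 23 had an unadjusted p under 0.05, in either direction (29.2% of all genes). The 5 calls hang on single libraries: with 6.96% of all genes called in either direction with all libraries, the count was 0 without either Acod1-/- OI+PM library (0.847% and 0.9% of all genes), 2 without WT OI+PM replicate 2 (3.58%), 3 without either Acod1-/- vehicle library (3.62% and 3.63%), 9 and 8 without WT PM replicate 1 and 2 (8.4% and 8.31%), and 20 (13 higher and 7 lower) without WT OI+PM replicate 1, a fit that called 48.6% of all genes. For Rtp4 the values were 1.56 and 1.85 against 0.988 and 0.643 normalized CPM, from few reads.

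Whether PM or OI acted differently in the 2 genotypes was tested by interaction terms, and neither gave a call among the 36 genes or among all 11228 (0%; edgeR's quasi-likelihood test). For PM, 2 of the 36 had an unadjusted p under 0.05 (2.43% of all genes), Rtp4 (-0.62) and Oasl1 (-0.71), and DESeq2 called Rtp4 (0.0267% of all genes). For OI, 6 had one (6.39% of all genes), Rtp4, Isg15, Mx1, Lgals3bp, Samd9l and Rsad2, in both directions, and DESeq2 called none; without WT OI+PM replicate 1, 4 passed (4.61% of all genes), Oas1a, Samd9l, Bst2 and Rtp4. Side by side, in libraries that do not overlap, the rise with PM differed between genotypes by a median of 0.13 log2 units over the 36 genes, and at most by 0.71 (Oasl1), and the fall with OI by a median of 0.28 and at most by 0.84 (Mx2). Without WT OI+PM replicate 2 the difference for Mx2 was 1.5 (adjusted p = 0.74), and without WT OI+PM replicate 1 that for Slfn5 was 1.08 in place of 0.45 (adjusted p = 0.0524).

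**Figure D5:**
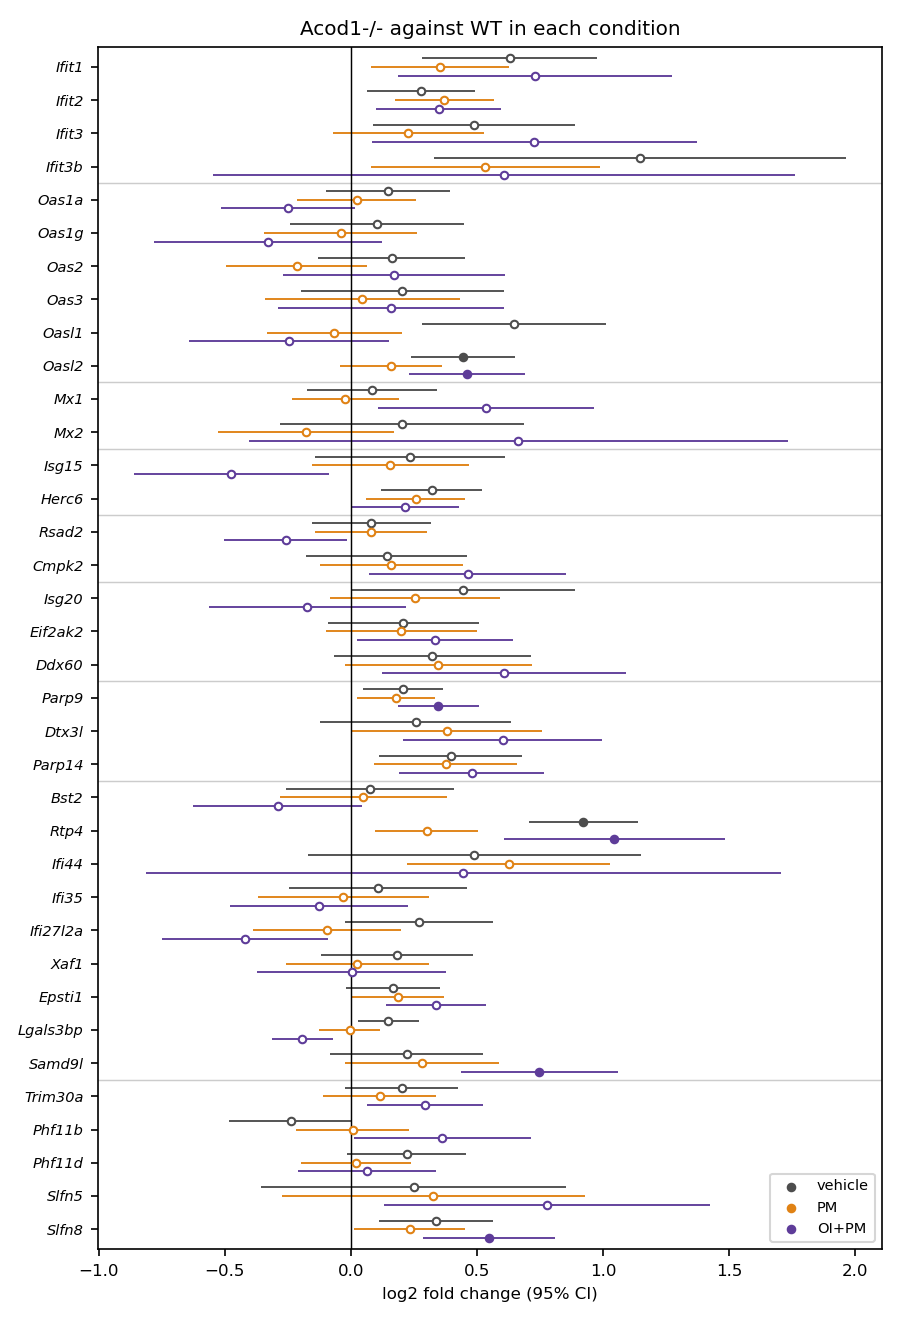
Log2 difference between Acod1-/- and WT cells with its 95% confidence interval for each gene, with vehicle (grey), PM (orange) and OI+PM (purple); filled points have an adjusted p of 0.05 or less. Filled are 2 points with vehicle, 0 with PM and 5 with OI+PM, and most vehicle points lie slightly right of 0.

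The genes that act before these effectors were read from a second list. The interferon genes themselves were at or near 0: of 12 measured, 9 (Ifna1, Ifna4, Ifna5, Ifna6, Ifna11, Ifne, Ifng, Ifnl2 and Ifnl3) had no count in any library, which allows up to 0.0815 to 0.0892 CPM (3 counts in a library, counting error only, and only for reads that fit one gene: the Ifna genes are close copies of one another, as are Ifnl2 and Ifnl3, and reads shared between them may not have been counted), and Ifnb1 had 7 counts in 5 libraries, at most 2 in one. RNA was taken at one time only, 24 hours after PM, and interferon protein was not measured in these libraries. Of 7 receptor and kinase genes, 1 was called higher with PM in WT cells (12.6% of all genes) and 3 lower with OI (22.6%); Ifnar1, a chain of the type I receptor, stood at 162 and 162 normalized CPM with vehicle, 171 and 156 with PM and 113 and 104 with OI+PM in WT cells, a log2 change of -0.59 with OI (adjusted p = 8.3e-05), and Jak1 and Tyk2 were not called.

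Of 9 transcription factor genes, 5 were called higher and 2 lower with PM in WT cells (12.6% and 12.2% of all genes), and 5 lower and 2 higher with OI (22.6% and 21.3%). Irf7, which amplifies interferon production, stood at 12.9 and 13.3 with vehicle, 65.8 and 68.8 with PM and 8.0 and 10.5 with OI+PM in WT cells, and at 16.9 and 18.4, 77.9 and 75.4, and 8.09 and 8.75 in Acod1-/- cells. Stat2 and Irf9, whose products are parts of ISGF3, followed the effectors in direction: in WT cells Stat2 rose by 0.80 and fell by 1.70 log2 units, and Irf9 rose by 0.28 and fell by 1.5. Irf1 stayed above vehicle with OI+PM, at 49.0 and 51.2 with vehicle, 94.1 and 94.9 with PM and 76.8 and 83.2 with OI+PM in WT cells, and at 57.6 and 57.2, 131.7 and 123.5, and 91.6 and 91.2 in Acod1-/- cells. Irf3 was called higher with OI in WT cells (0.34) and Irf8 too (0.17), neither of them by 2-fold.

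Usp18, which removes ISG15 from proteins and dampens the receptor, had the largest fall with OI among the 5 regulators tested: 3.69 and 4.15 normalized CPM with vehicle, 25.0 and 24.2 with PM and 1.11 and 1.69 with OI+PM in WT cells. With OI it changed by -4.14 log2 units in WT and -3.99 in Acod1-/- cells. Socs3, an inhibitor of cytokine receptors, rose by 3.42 with PM in both genotypes and stayed above vehicle with OI+PM (2.46 and 0.86), at 3.0 normalized CPM or less in WT cells.

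Among 13 sensor genes, 6 were called higher and 1 lower with PM in WT cells (12.6% and 12.2% of all genes) and 9 lower with OI (22.6%). Zbp1, a sensor of Z-form nucleic acid, rose by 2.37 and fell by 3.08 log2 units, and Ddx58, which encodes RIG-I, rose by 1.16 and fell by 2.02. Dhx58 (LGP2), Ifih1 (MDA5) and Ikbke (a kinase that activates IRF3 and IRF7) rose by 0.79, 0.77 and 0.93, and their changes with OI were -2.08, -1.20 and -1.82. Tlr3 was not called with PM and fell by 1.38 with OI, and Tlr9 fell by 1.48 with PM in WT cells, with -0.79 in Acod1-/- cells (adjusted p = 0.0959). Mavs, the adaptor below RIG-I, was not called in either. In all, 15 of 35 pathway genes were called higher and 4 lower with PM in WT cells (12.6% and 12.2% of all genes), and 3 higher and 21 lower with OI (21.3% and 22.6%); in Acod1-/- cells 16 were higher and 2 lower with PM (12% and 11.9%), and 0 higher and 20 lower with OI (13.9% and 20.6%).

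Of the close relatives of the 36 genes, 15 passed the expression minimum. With PM 10 of the 15 were called higher in WT cells (12.6% of all genes), and with OI 13 were called lower, each of them at least 2-fold (22.6% of all genes, and 8.49% at 2-fold). In Acod1-/- cells 8 were higher with PM (12%) and 14 lower with OI (20.6%). Slfn2, a Schlafen gene that keeps T cells and monocytes quiescent, stood at 174 and 174 normalized CPM with vehicle, 384 and 438 with PM and 103 and 147 with OI+PM in WT cells. Slfn1 rose by 3.20 and fell by 4.81 log2 units from under 1 normalized CPM with vehicle. Slfn9 was not called with PM and yet fell from 42.6 and 28.1 to 1.92 and 1.05 with OI, a log2 change of -4.55 (adjusted p = 3.38e-07). Ifi27, a relative of Ifi27l2a, changed little, at 108 and 110 with vehicle, 114 and 149 with PM and 83.0 and 127 with OI+PM in WT cells, and was called lower with OI in Acod1-/- cells (-0.70, adjusted p = 0.0127). Ifit1bl1, a copy near Ifit1, rose by 2.08 and fell by 2.91. Of the 50-base stretches of Ifit1, 7.1% occur in Ifit1bl2 or Ifit1bl1, so a small part of its reads is uncertain.

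Other readouts moved in the same libraries. NRF2 targets, which OI is known to induce, went up and not down with OI: Nqo1 stood at 3.71 and 3.46 normalized CPM with vehicle, 46.9 and 44.8 with PM and 209.7 and 251 with OI+PM in WT cells, and Gclm at 162 and 148, 498 and 480, and 1508 and 1638. Of the neutrophil markers S100a8 was higher in each OI+PM library than in each PM library, and S100a9 and Ngp were lower with OI+PM than with PM in each genotype (S100a9 at 1.26 and 2.16 against 0.419 and 0.474 in WT cells): the summed level of the 7 ran from 5.98 to 5.99 with vehicle, 12.4 to 18.7 with PM and 29.5 to 61.0 with OI+PM in WT cells and from 6.08 to 6.59, 17.9 to 19.1 and 33.5 to 34 in Acod1-/- cells, most of it S100a8, with 3 of the 7 (S100a8, S100a9 and Ngp) counted in every library and Ly6g at 1 count in all. Plasmacytoid dendritic cell markers, 3 of 6 counted in every library (Ccr9, Cox6a2 and Runx2), summed to 10.1 to 10.5, 10.4 to 11.9 and 22.5 to 24.1 in WT cells and to 8.09 to 8.39, 8.38 to 9.61 and 22.0 to 22.1 in Acod1-/- cells, and Ly6d and Klk1 were at 0. Summed macrophage markers were 14450 to 14600, 23190 to 26790 and 14430 to 16640 in WT cells and 14280 to 14350, 24520 to 27340 and 15000 to 15390 in Acod1-/- cells, most of it Lyz2. Within that list Fcgr1 (83.3 and 84.7 to 27.8 and 28.3), Mertk and Adgre1 were lower with OI+PM than with vehicle in both WT libraries, and Cd68, Csf1r and Itgam were higher.

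Other marker lists went down with the 36 genes. The 5 B cell markers summed to 2.70 to 3.64 normalized CPM with vehicle, 2.51 to 4.04 with PM and 1.05 to 1.14 with OI+PM in WT cells, and to 2.54 to 2.58, 2.76 to 2.88 and 0.86 to 1.20 in Acod1-/- cells. Most of this was Cd79b, the only one of the 5 counted in every library, while Cd79a and Pax5 had 3 counts each in all. The 6 stromal markers, of which Col1a1 and Col1a2 were counted in every library, summed to 2.25 to 2.88, 1.77 to 1.82 and 0.34 to 0.63 in WT cells and to 2.57 to 2.64, 2.65 to 3.65 and 0.59 to 1.35 in Acod1-/- cells. In both lists each OI+PM library lay below each vehicle and PM library of its genotype. The 6 T and NK cell markers summed to 0.66 to 0.67, 0.60 to 0.81 and 1.17 to 1.79 in WT cells and to 0.72 to 1.01, 0.52 to 0.65 and 0.71 to 0.84 in Acod1-/- cells, and the conventional dendritic cell and the mast cell and basophil markers reached at most 0.583 in any library. The part of these readouts in the levels of the 36 genes was not tested.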

How the data were processed

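RNA of BMDMs was measured in 12 libraries, 2 in each of 6 groups taken from the labels. The authors deposited raw counts per gene, without normalization; per the labels' processing notes, STAR 2.5.3a, Picard 2.9.0, FastQC 0.11.5, featureCounts, DESeq2 and GRCm38 were used on single-end reads of 50 bp. The featureCounts version, annotation release, strand setting and treatment of reads with several places are not given in the sources used here, and the 50-base stretches shared between genes were counted in the GENCODE vM21 transcripts. The 36 genes and the other lists were chosen with earlier results of these data known; all 36 were named by role, with values per library. Pathway genes and relatives were counted, and those with a called change of at least 2-fold could be named; other genes named from these lists were chosen after their values were seen.

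Genes entered the test with a CPM over 1.5 in 2 or more libraries; 11228 did, all 36 among them. TMM scaling and edgeR 4.0.16 (R 4.3.3) gave quasi-likelihood tests of contrasts between the 6 group means, two-sided and unblocked, with Benjamini-Hochberg adjustment over the 11228 genes. The SE is that implied by the test. Depth was 33616577 to 36817898 counts. Alternatives were DESeq2 1.42.0, RLE scaling, a minimum of 10 counts in total, a 2-fold rule, the compared groups alone, a gene length offset, blocking by replicate number, and each library left out in turn. Some genes of the lists are not reported by name here.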

Additional observations from a re-analysis of the deposited data

How the results depend on the processing

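The fall of the 36 genes with OI moved little: over the fits by DESeq2, with RLE scaling, with a minimum of 10 counts in total, with the compared groups alone, with a length offset, with a replicate block and without each library, 34 to 36 genes were called in WT cells and 36 in Acod1-/- cells. With PM the same fits called 31 to 35 in each genotype, and for OI+PM against vehicle 30 to 33 in WT cells and 29 to 34 in Acod1-/- cells. Of 205 values called among the 36 genes, none reversed, and 1 lost its call by DESeq2, 1 with RLE scaling, 2 with the minimum of 10 counts, 7 with the compared groups alone, 1 with the length offset and 1 with the replicate block; leaving out a library lost 64 of 2460. Adding the 2-fold rule left 21 genes for PM and 21 for OI+PM against vehicle in Acod1-/- cells (3.19% of all genes higher and 9.25% lower). For these treatment comparisons the share of all genes called is given only for the fit described above, not for its alternatives. The steady counts of the 36 genes therefore have no background beside them in the other fits. The length offset, with and without the block, reversed 2 small uncalled values and called the reversed ones, Ifi27l2a for PM in Acod1-/- cells (-0.22 in both, from 0.09) and Bst2 for OI+PM against vehicle in WT cells (-0.36 in both, from 0.16). Values of OI+PM against vehicle that turned without a call either way were Isg15 in WT cells (-0.14) and Ifi35 in WT (-0.10) and Acod1-/- cells (-0.14). The cause was not tested.

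Counts for genotype moved with nearly every choice. The share of all genes called in the same fit is given in brackets. With vehicle, 2 genes (1.83%) became 0 with the 2-fold rule, 1 with RLE scaling (1.75%), 1 with the minimum of 10 counts (1.04%), 21 with the vehicle groups alone (20.6%), 6 with the length offset (3.32%), 6 with the offset and block (3.31%), and 1 to 3 without 1 library (0.456% to 3.51%). With PM, 0 (2.4%) became 2 by DESeq2 (3.87%), 3 with the length offset (5.25%), 3 with the offset and block (5.33%), 1 with the replicate block (2.27%) and 0 to 3 without 1 library (0.642% to 6.21%). With OI+PM, 5 (6.96%) became 1 with the 2-fold rule, 12 by DESeq2 (11.8%), 0 with the compared groups alone (0.0178%), 12 with the length offset (15.4%), 15 with the offset and block (16.9%), and 0 to 20 without 1 library (0.847% to 48.6%). For the interaction of PM and genotype DESeq2 called 1, and for that of OI 0 to 4 were called without 1 library. The causes were not tested. An arm of 1 library was assumed to vary like the other groups.

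The labels number the replicates 1 and 2 in each group, but nothing says that a number marks a shared animal or day, and with 2 pairs the deviations of same-numbered libraries correlated between -0.412 (genotype, PM) and 0.733 (OI, WT). The replicate block called 7 genes for genotype with OI+PM in place of 5 (7.84% and 6.96% of all genes). Crossing the numbers for genotype with PM, an alternative chosen after seeing the data, called 1 gene in place of 0 (3.51% and 2.4% of all genes). Depth limits genes near 1 CPM, such as Isg20, Mx2, Ifit3b and Ifi44.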
